A study of Mus musculus with 3 samples.

Results

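The 8 genes described here are the cell cycle inhibitors Cdkn1a, Cdkn1b, Cdkn1c, Cdkn2c and Cdkn2d and the D cyclins Ccnd1, Ccnd2 and Ccnd3. They were chosen by name, and all 8 were found among the 18738 genes that the count tables list. Their UMI counts (unique molecular identifiers, 1 for each captured RNA molecule) were summed over the cells of each type in each lot, and a gene's level is given as its UMIs in every 1000000 UMIs of that sum (CPM). Detection of Mki67 and Top2a, transcripts of dividing cells, was set beside them.

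The cells are fetal ovarian somatic cells (FOSCs) of E12.5 CD1 mice (Charles River strain code 022), made as the somatic partner of germ cells in reconstituted ovaries. The study profiled 3 frozen lots (26, 29 and 30) by 10X Genomics 3′ sequencing right after thawing, each lot pooling the ovaries of embryos from 10 pregnant females. There was 1 genotype and no treatment, so the lots are the replicates (n = 3) and the comparisons are between cell types within them. As a model of the fetal ovary the lots are limited by the trypsin digestion, the magnetic depletion of germ cells, the removal of the mesonephros and the freezing, which every lot went through, and no single embryo can be followed.

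Entry into the cell cycle is set by D cyclins, which bind the kinases CDK4 and CDK6 and so release E2F transcription factors from the retinoblastoma proteins. INK4 inhibitors, such as the products of Cdkn2c (p18) and Cdkn2d (p19), bind CDK4 and CDK6 directly. CIP/KIP inhibitors, the products of Cdkn1a (p21), Cdkn1b (p27) and Cdkn1c (p57), bind cyclin and kinase together and hold a wider range of these complexes. In the fetal ovary, pre-granulosa cells, the supporting cells that later surround oocytes, are known to leave the cell cycle soon after they are specified and to carry p27, while the surface epithelium and the stroma keep dividing.

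The bases before the start of Cdkn1b are shown beside those of Mki67 and Top2a because these genes ran in opposite directions between the cell types. They are the 250 bases before each start from RefSeq (build GRCm38.p6), at chr6:134920151-134920400 on the plus strand for Cdkn1b, chr7:135716380-135716629 on the minus strand for Mki67 and chr11:99024190-99024439 on the minus strand for Top2a. Capitals mark the CHR letters TTTGAA (the cell cycle genes homology region, known from promoters of genes used in mitosis) and the CCAAT box CCAAT, each searched on both strands, so that a match on the other strand reads TTCAAA or ATTGG.
Cdkn1b: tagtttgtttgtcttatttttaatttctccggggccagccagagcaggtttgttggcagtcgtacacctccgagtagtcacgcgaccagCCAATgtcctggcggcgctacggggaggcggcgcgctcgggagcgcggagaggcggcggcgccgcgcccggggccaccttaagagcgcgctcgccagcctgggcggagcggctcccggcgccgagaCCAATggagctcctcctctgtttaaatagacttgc
Mki67: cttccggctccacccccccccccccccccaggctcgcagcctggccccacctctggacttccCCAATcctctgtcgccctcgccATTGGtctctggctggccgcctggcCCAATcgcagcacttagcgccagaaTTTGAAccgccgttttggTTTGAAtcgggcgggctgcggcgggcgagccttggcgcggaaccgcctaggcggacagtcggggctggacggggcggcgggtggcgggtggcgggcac
Top2a: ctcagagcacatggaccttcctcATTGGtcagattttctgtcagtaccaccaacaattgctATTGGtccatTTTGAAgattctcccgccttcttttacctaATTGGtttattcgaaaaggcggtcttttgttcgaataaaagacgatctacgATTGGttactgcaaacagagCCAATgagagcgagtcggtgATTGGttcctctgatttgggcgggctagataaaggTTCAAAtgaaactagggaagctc

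Mki67 and Top2a each held 2 CHR matches, and the CCAAT letters stood 3 times before Mki67 and 6 times before Top2a. Cdkn1b held 2 CCAAT matches and 0 CHR matches. RefSeq windows of the same length were matched for 5 members (Cdkn1a, Cdkn1b, Cdkn2c, Cdkn2d and Ccnd3), and none of their 8 windows, which include second starts, held a CHR match. CCAAT letters stood in the windows of Cdkn1b, Cdkn2d and the second start of Ccnd3. Of all 32851 RefSeq windows, 16% held a CHR match and 33.8% a CCAAT match, and no bases were shared between matches of the 2 motifs in these windows. A match is a run of letters only.

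After removing barcodes with fewer than 200 or more than 9000 genes or with over 10% mitochondrial UMIs, 28971 of 29103 cells remained, with 87474664 to 141398825 UMIs in a lot. Lots shared between 19 and 30 cell barcodes, at most 0.351% of the smaller lot. Classes were named from marker genes and are called "-like" for that reason. They held 11962 pre-granulosa-like, 6023 epithelial-like and 6480 stromal-like cells, besides germ, endothelial, macrophage, red blood, Sertoli, mesonephric tubule and neural crest-like cells, and 1954 cells stayed unnamed. Fst and Wnt4 averaged 813 and 608 CPM in pre-granulosa-like cells against 75.7 and 147 CPM in epithelial-like cells. Foxl2, a transcription factor of granulosa cells, averaged 4.97 ± 1.22 CPM (SD, n = 3 lots) in pre-granulosa-like cells. Upk3b, a surface epithelium gene, averaged 230 CPM in epithelial-like and 5.69 CPM in pre-granulosa-like cells, and Tcf21, a stromal factor, averaged 257 CPM in stromal-like cells but still 103 CPM in epithelial-like cells.

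The first comparison asks how many cells of each class carried a Mki67 or Top2a transcript. Each cell was thinned to 4000 UMIs so that depth could not set the share, and cells below that depth were left out (54 pre-granulosa-like, 23 epithelial-like and 149 stromal-like cells). A Mki67 or Top2a UMI was found in 8.47%, 5.05% and 6.83% of pre-granulosa-like cells in lots 26, 29 and 30 (exact 95% intervals 7.63 to 9.37, 4.33 to 5.86 and 6.12 to 7.60). In epithelial-like cells the shares were 52.1%, 49.0% and 48.5%, and in stromal-like cells 43.0%, 41.6% and 39.7%. The lots of the 3 classes did not overlap, and pre-granulosa-like cells were lowest in 3 of 3 lots.

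The mean shares were 6.79% ± 1.71 (SD, n = 3 lots) in pre-granulosa-like, 49.9% ± 1.95 in epithelial-like and 41.4% ± 1.68 in stromal-like cells. The difference was -43.1 percentage points against epithelial-like cells (exact permutation test over lots, two-sided p = 0.1). Against stromal-like cells it was -34.6 points (exact permutation p = 0.1). The smallest p that 3 lots against 3 can give in this test is 0.1. The test treats the classes as independent and does not use the pairing by lot. Without thinning the means were 16.6%, 63.6% and 50.1%. No class here is known to hold no dividing cells, so the share that free RNA gives could not be read from one. The lowest mean share of the other named classes was that of red blood-like cells (78 in all), 13.2% ± 3.60 at 4000 UMIs, with median depths of 7490.5 to 12097 UMIs a lot before thinning against 8300 to 11229 UMIs in pre-granulosa-like cells. The share in pre-granulosa-like cells lay below that, and it is not read as a share of dividing cells. Intervals cover counting error only.

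**Figure D1:**
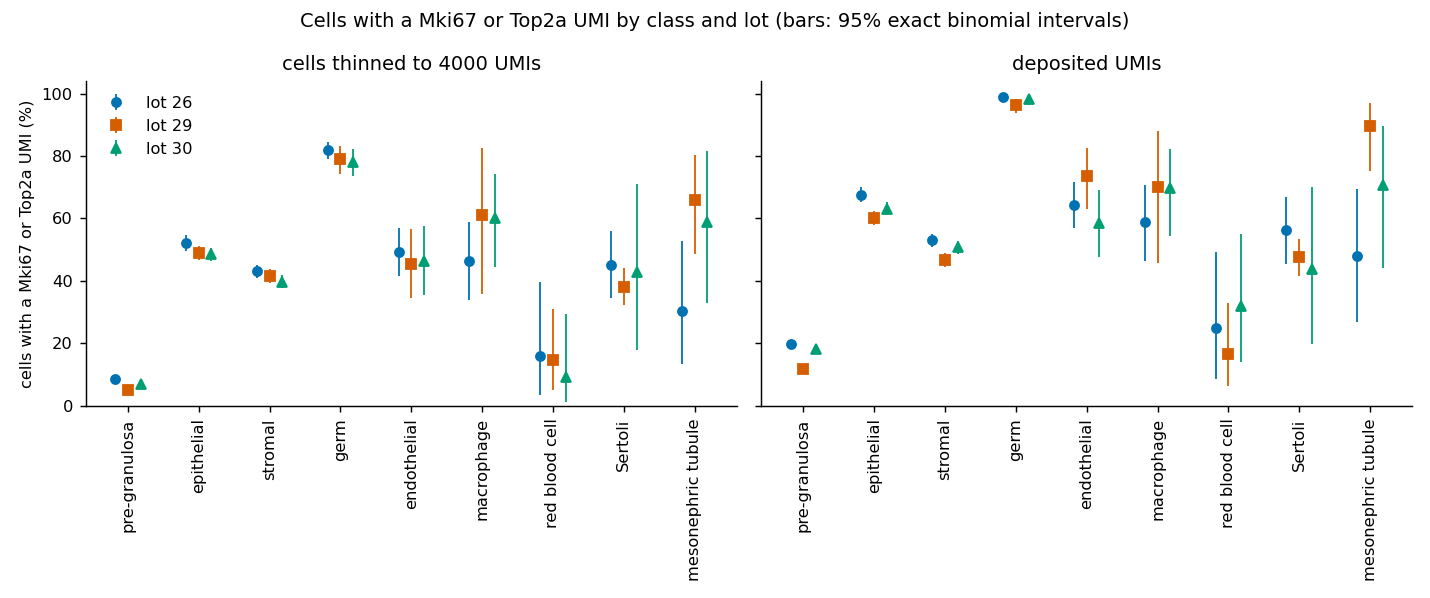
Percentage of cells with at least 1 Mki67 or Top2a UMI (y axis) by class (x axis), with 1 point for each lot and 95% exact binomial intervals, after thinning to 4000 UMIs (left) and on the deposited UMIs (right). Pre-granulosa-like cells sit at 5.05% to 8.47% on the left, below the epithelial-like (48.5% to 52.1%) and stromal-like (39.7% to 43.0%) cells in every lot.

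Summed levels also put pre-granulosa-like cells lowest of the large classes. Mki67, a protein of the chromosome surface in dividing cells, measured 5.90, 3.85 and 4.92 CPM in pre-granulosa-like cells of lots 26, 29 and 30 against 193, 147 and 142 CPM in epithelial-like cells. Top2a, the topoisomerase that untangles sister chromosomes, measured 16.1, 11.9 and 15.2 CPM against 471, 430 and 405 CPM. In stromal-like cells Mki67 measured 196, 162 and 161 CPM and Top2a 377, 380 and 332 CPM. Unlike the shares, Mki67 was thus higher in stromal-like than in epithelial-like cells in every lot, while Top2a was lower. Both genes were far lower in pre-granulosa-like cells with no overlap between lots. Against epithelial-like cells the log2 difference was -4.96 ± 0.22 (SE) for Mki67 (adjusted p = 1.1e-15) and -4.84 ± 0.19 for Top2a (adjusted p = 1.7e-16), both by edgeR's quasi-likelihood test. Cluster 11, 722 cells described further on that stayed unnamed, held more Mki67 and Top2a. With it counted as pre-granulosa-like, an alternative chosen after seeing the data, Mki67 measured 12.1, 6.15 and 11.6 CPM, and the log2 differences were -3.95 for Mki67 (adjusted p = 2.5e-13) and -4.37 for Top2a (adjusted p = 3.3e-15).

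Among the CIP/KIP inhibitors, Cdkn1b set pre-granulosa-like cells apart from the other large classes. Cdkn1b measured 176, 163 and 155 CPM in pre-granulosa-like cells of lots 26, 29 and 30, 39.7, 38.7 and 42.2 CPM in epithelial-like cells and 45.7, 38.0 and 44.3 CPM in stromal-like cells. All 3 pre-granulosa-like values were higher than every value of the other named classes, while epithelial-like and stromal-like values overlapped. The means were 165 ± 10.6 CPM in pre-granulosa-like, 40.2 ± 1.81 in epithelial-like and 42.7 ± 4.08 in stromal-like cells. Next in order came neural crest-like cells at 96.0 ± 41.7 CPM from 52 cells, and germ cells were lowest at 14.3 ± 2.68 CPM.

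Cdkn1c, an imprinted gene, measured 3001, 3345 and 3200.2 CPM in pre-granulosa-like cells. It measured 1545, 1425 and 1585 CPM in epithelial-like cells and 1269, 1392 and 1308 CPM in stromal-like cells. The pre-granulosa-like lots stood above both, and the epithelial-like lots stood above the stromal-like ones without overlap. Neural crest-like cells had the highest level, 7650 ± 2641 CPM, and germ cells the lowest, 386 ± 79.8 CPM. Red blood-like cells ranged from 82.2 to 896 CPM in the 3 lots.

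Cdkn1a, a target of p53, measured 76.8, 114 and 83.1 CPM in pre-granulosa-like cells against 50.7, 56.8 and 53.3 CPM in epithelial-like cells and 26, 26.7 and 33.1 CPM in stromal-like cells. The 3 classes did not overlap, and lot 29 stood highest within the pre-granulosa-like cells. Mesonephric tubule-like cells were higher still, at 127 ± 31.6 CPM, and macrophage-like cells, at 79.6 ± 1.70 CPM, lay within the pre-granulosa-like range. Cluster 10, of 796 unnamed cells with Wnt4 at 1106 CPM and Fst at 633 CPM, held more Cdkn1a, 250 ± 24.6 CPM. Like pre-granulosa-like cells it had high Cdkn1c (2927 CPM), low Ccnd1 (17.4 CPM) and low Mki67 (5.65 CPM). Its Cdkn1b, 73.7 CPM, lay below theirs.

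Of the INK4 inhibitors, Cdkn2c was rare in every class, and measured 0.244, 0.385 and 0.166 CPM in pre-granulosa-like cells of lots 26, 29 and 30, against 2.53, 1.69 and 1.96 CPM in epithelial-like and 3.17, 2.85 and 2.67 CPM in stromal-like cells. The pre-granulosa-like lots were lower than both without overlap, and the highest mean was that of macrophage-like cells, 14.5 ± 7.19 CPM. The pre-granulosa-like sum rests on 11, 11 and 9 Cdkn2c UMIs in the 3 lots. Cdkn2d measured 24.6, 24.2 and 24.4 CPM in pre-granulosa-like, 29.2, 30.6 and 31.2 CPM in epithelial-like and 34.9, 38.3 and 36.2 CPM in stromal-like cells. These 3 classes did not overlap, but they lay close together beside the 90.9 ± 4.56 CPM of germ cells and the 102 ± 4.22 CPM of neural crest-like cells.

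The D cyclins differed from each other in where they were high. Ccnd1 measured 27.4, 28.0 and 31.2 CPM in pre-granulosa-like, 57.8, 66.7 and 69.7 CPM in epithelial-like and 52.6, 55 and 54.1 CPM in stromal-like cells. Pre-granulosa-like cells were lowest of the large classes. Among the named classes only red blood-like cells, at 1.13 ± 1.95 CPM, had a lower mean. Mesonephric tubule-like cells averaged 350 ± 58.0 CPM and neural crest-like cells 572 ± 199 CPM. Ccnd2 measured 302, 256 and 286 CPM in pre-granulosa-like cells against 253, 187 and 244 CPM in epithelial-like cells and 433, 373 and 435 CPM in stromal-like cells. Stromal-like cells were highest of the 3 without overlap, the lowest pre-granulosa-like lot lay just above the highest epithelial-like lot, and germ cells were lowest of all classes at 43.1 ± 17.6 CPM. Ccnd3 measured 125, 116 and 144 CPM in pre-granulosa-like and 148, 140 and 168 CPM in epithelial-like cells, which overlapped, and 182, 187 and 205 CPM in stromal-like cells, which stood above both.

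**Figure D2:**
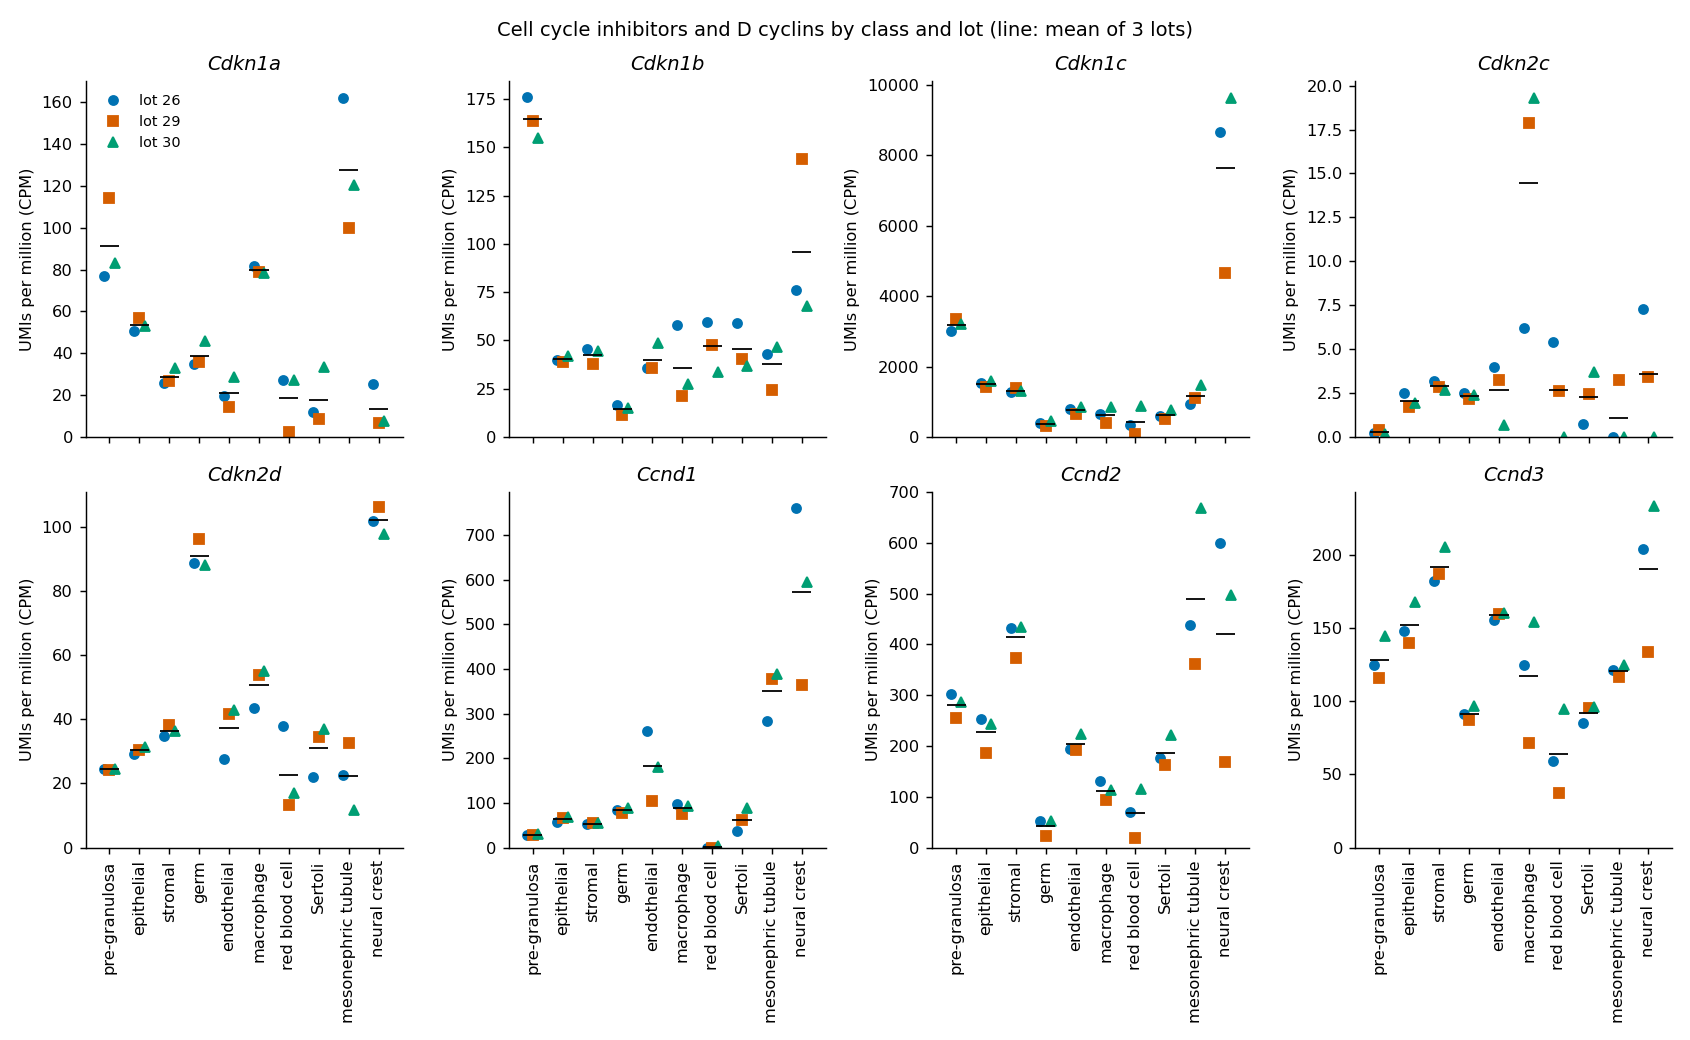
Level in CPM (y axis, 1 scale for each gene, from 0) of the 8 genes in the named classes (x axis), with 1 point for each lot and a line at the mean of 3 lots. Cdkn1b is highest in pre-granulosa-like cells (155 to 176 CPM), where Ccnd1 (27.4 to 31.2 CPM) and Cdkn2c (0.166 to 0.385 CPM) are low.

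The levels were tested with edgeR over 8 classes and 24 sums, and 44.9% of all 13827 genes tested passed an adjusted p of 0.05 between pre-granulosa-like and epithelial-like cells, 25.5% higher and 19.4% lower in the former. Of the 8 genes, 3 were higher and 2 lower, so the count of 5 was near that background. The 3 higher genes were the CIP/KIP inhibitors, with log2 differences of 2.11 ± 0.17 (SE) for Cdkn1b (4.32-fold, adjusted p = 1.6e-10), 1.15 ± 0.25 for Cdkn1c (2.21-fold, adjusted p = 0.00058) and 0.85 ± 0.16 for Cdkn1a (1.80-fold, adjusted p = 7.0e-05). The 2 lower genes were Cdkn2c, with -2.93 ± 0.36 (adjusted p = 1.9e-07), and Ccnd1, with -1.09 ± 0.17 (adjusted p = 6.1e-06).

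Cdkn2d (-0.24, adjusted p = 0.16 by edgeR), Ccnd2 (0.38, adjusted p = 0.13) and Ccnd3 (-0.17, adjusted p = 0.34, interval -0.43 to 0.10) did not pass. With the lot as a block, Cdkn2d (adjusted p = 0.016) and Ccnd2 (adjusted p = 0.0029) passed with the same sign. The median log2 difference was 0.11 over the 8 genes and 0.06 over all genes tested.

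The comparison with stromal-like cells uses the same pre-granulosa-like sums. In it 48.6% of the genes tested passed by edgeR (26% higher, 22.6% lower), and 3 of the 8 genes were higher and 4 lower in pre-granulosa-like cells. Higher were Cdkn1b (log2 difference 2.09 ± 0.17 SE, 4.26-fold, adjusted p = 1.1e-10), Cdkn1a (1.82 ± 0.16, 3.53-fold, adjusted p = 4.5e-10) and Cdkn1c (1.41 ± 0.26, 2.65-fold, adjusted p = 4.6e-05). Lower were Cdkn2c (-3.36 ± 0.36, adjusted p = 1.1e-08), Ccnd1 (-0.76 ± 0.17, adjusted p = 0.00043), Cdkn2d (-0.44 ± 0.14, adjusted p = 0.0092) and Ccnd3 (-0.44 ± 0.14, adjusted p = 0.0093). The median was -0.43 over the 8 genes and 0.03 over all genes. Ccnd3 no longer passed without lot 26 (adjusted p = 0.11), nor did Cdkn2d without lot 30 (adjusted p = 0.055). Ccnd2 was -0.42 (adjusted p = 0.089), and passed with the lot as a block (-0.41, adjusted p = 0.0016).

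Between epithelial-like and stromal-like cells, where 30.3% of genes passed by edgeR (13.4% higher and 16.9% lower in epithelial-like cells), 2 of the 8 genes did, 1 in each direction. Cdkn1a was higher in epithelial-like cells by a log2 difference of 0.97 ± 0.16 (adjusted p = 2.5e-05) and Ccnd2 lower by -0.80 ± 0.20 (adjusted p = 0.0030). For Cdkn1b the log2 difference was -0.02 with an interval of -0.35 to 0.31. Ccnd1 (0.33, adjusted p = 0.14) and Ccnd3 (-0.27, adjusted p = 0.15) passed with the lot as a block (adjusted p = 0.027 and 0.0043).

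The next question was whether the genes differ between the cells of a class that held a Mki67 or Top2a transcript and those that did not. Cells of at least 4000 UMIs were split by whether they held a Mki67 or Top2a UMI after thinning, and the full counts were summed by class, lot and side of the split. Mki67 and Top2a define the split, so their own differences are no result. Cells with a UMI are not shown to be dividing in pre-granulosa-like cells. The mean share with a UMI in this class lay below that of every other named class, and the genes of the G2 and M phases did not pass. That split is therefore read as a split by detection, which does not exclude some dividing cells on the side with a UMI.

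In epithelial-like cells, 9.85% of the 13621 genes tested passed by edgeR, 6.59% higher and 3.25% lower in cells with a UMI, and 3 of the 8 genes were higher and 3 lower. Cdkn2c was higher in cells with a UMI, at 4.02, 2.68 and 3.21 CPM in lots 26, 29 and 30 against 0.375, 0.385 and 0.386 CPM without (log2 difference 3.08 ± 0.35 SE, adjusted p = 3.6e-06). Cdkn2d measured 39.6, 41.6 and 41.7 CPM with against 14.2, 15.8 and 18.2 CPM without (1.33 ± 0.11, adjusted p = 4.0e-08). Cdkn1b measured 44.9, 47.3 and 48.6 CPM with against 32.1, 27.4 and 34.3 CPM without (0.58 ± 0.10, adjusted p = 0.00044). In all 3 genes the lots of the 2 sides did not overlap. With the split by Mki67 alone the log2 difference was 1.75 for Cdkn2c and 0.86 for Cdkn2d, and both still passed.

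Lower in the epithelial-like cells with a UMI were Cdkn1a, at 33.4, 36.7 and 38.3 CPM against 75.8, 83.6 and 72 CPM (log2 difference -1.10 ± 0.19 SE, adjusted p = 0.00045 by edgeR), and the cyclins Ccnd2, at 193, 140 and 186 CPM against 340, 249 and 317 CPM (-0.81 ± 0.10, adjusted p = 1.7e-05), and Ccnd1, at 47.3, 53.5 and 58.2 CPM against 72.9, 84.3 and 84.1 CPM (-0.61 ± 0.10, adjusted p = 0.00027). These too did not overlap between the sides. Ccnd3 (-0.26, adjusted p = 0.12) and Cdkn1c (-0.16, adjusted p = 0.30) did not pass, but did with the lot as a block (adjusted p = 2.4e-05 and 0.022).

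Stromal-like cells, where 14.2% of genes passed by edgeR (7.71% higher, 6.46% lower), gave 6 of the 8 genes as well, 2 higher and 4 lower. Cdkn2c (log2 difference 2.86 ± 0.31 SE, adjusted p = 2.1e-06) and Cdkn2d (1.41 ± 0.11, adjusted p = 1.5e-08) were higher in cells with a UMI. Cdkn1a (-0.94 ± 0.20, adjusted p = 0.0034), Cdkn1c (-0.56 ± 0.08, adjusted p = 9.3e-05), Ccnd2 (-0.52 ± 0.10, adjusted p = 0.0019) and Ccnd1 (-0.36 ± 0.10, adjusted p = 0.023) were lower. Without lot 30 the count fell to 3, with adjusted p = 0.053 for Cdkn1a, 0.072 for Ccnd2 and 0.12 for Ccnd1, and Ccnd1 also missed the threshold without lot 29 (adjusted p = 0.23). Cdkn1b was 0.29 (adjusted p = 0.060) and Ccnd3 -0.20 (adjusted p = 0.21), and both passed with the lot as a block (adjusted p = 0.015 and 0.00047). For Cdkn1b the value was 0.62 with called doublets removed (adjusted p = 7.5e-06), 0.64 with cell cycle genes left in the clustering (adjusted p = 3.2e-05) and 0.49 at resolution 1.2 (adjusted p = 0.0015). With the split on deposited counts Cdkn1a (-0.59, adjusted p = 0.057) and Ccnd1 (-0.19, adjusted p = 0.27) no longer passed.

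In pre-granulosa-like cells the same split gave 0 of the 8 genes by edgeR, and 0.0147% of all genes tested, which are Mki67 and Top2a themselves, both higher. At an unadjusted p under 0.05 there were 2 members, Ccnd1 and Cdkn2d, and DESeq2 gave 0 members adjusted and the same 2 unadjusted. The log2 differences were 0.27 (95% interval 0.04 to 0.50) for Ccnd1 and -0.37 (-0.62 to -0.11) for Cdkn2d. The intervals were -0.26 to 0.11 for Cdkn1b, -0.19 to 0.13 for Cdkn1c, -0.40 to 0.35 for Cdkn1a, -0.20 to 0.21 for Ccnd2 and -0.29 to 0.11 for Ccnd3.

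The Cdkn1b levels with a UMI, 169, 157 and 153 CPM in lots 26, 29 and 30, lay beside 177, 163 and 155 CPM without, and the sides overlapped. Pooled over the lots, Cdkn2c held 2 UMIs on the side with a UMI and 29 on the other. That is a ratio of 0.862 with an exact counting interval of 0.0996 to 3.41, which leaves out the spread between lots, so that a difference was not detectable at this depth. Of the 16 genes of the G2 and M list, which are made in dividing cells, 0 passed in pre-granulosa-like cells, with a median log2 difference of 0.52 against -0.01 over all genes, while 16 of 16 were higher in epithelial-like (median 3.58) and in stromal-like cells (median 4.00).

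**Figure D3:**
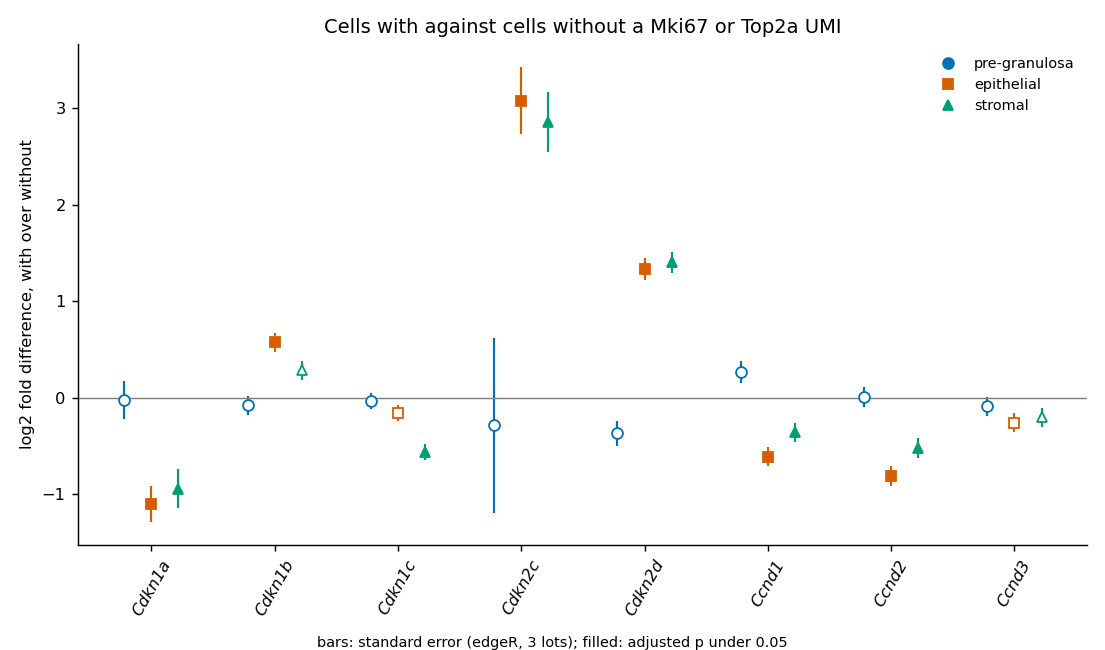
Log2 difference (y axis) of the 8 genes (x axis) between cells with and cells without a Mki67 or Top2a UMI in the 3 large classes, with standard errors from edgeR over 3 lots. Filled points passed an adjusted p of 0.05, and in pre-granulosa-like cells (circles) none of the 8 did, while Cdkn2c and Cdkn2d lie above 0 and Cdkn1a, Ccnd1 and Ccnd2 below 0 in the other classes.

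Because so few pre-granulosa-like cells carried a UMI, the classes were compared again within each side of the split. Among cells without a UMI, 5 of the 8 genes passed against epithelial-like cells by edgeR, 3 higher and 2 lower, beside 48% of all genes (23.3% higher, 24.7% lower). Cdkn1b kept its difference, at 177, 163 and 155 CPM against 32.1, 27.4 and 34.3 CPM (log2 difference 2.39 ± 0.10 SE, adjusted p = 5.7e-12), and so did Cdkn1c (0.98 ± 0.08, adjusted p = 3.3e-08). Ccnd1 (-1.51 ± 0.10, adjusted p = 1.4e-09) and Ccnd3 (-0.38 ± 0.10, adjusted p = 0.0034, and 0.073 without lot 29) were lower.

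Cdkn2d turned: among cells without a UMI it was higher in pre-granulosa-like cells, at 24.9, 24.7 and 24.6 CPM against 14.2, 15.8 and 18.2 CPM (0.60 ± 0.11, adjusted p = 0.00016 by edgeR). With the split by Mki67 alone this value was 0.10 (adjusted p = 0.43) and no longer passed. Cdkn1a (0.24, adjusted p = 0.29, interval -0.11 to 0.59), Cdkn2c (-0.60, adjusted p = 0.30) and Ccnd2 (-0.11, adjusted p = 0.40) did not pass, although Cdkn1a (adjusted p = 0.038) and Ccnd2 (adjusted p = 0.019) did with the lot as a block. With the split by Mki67 alone Cdkn1a (0.53, adjusted p = 0.011) and Cdkn2c (-2.06, adjusted p = 2.5e-05) passed as well.

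Against stromal-like cells without a UMI all 8 genes passed by edgeR, 4 in each direction, beside 52.5% of all genes (25.7% higher, 26.7% lower). Cdkn1b (log2 difference 2.17), Cdkn1a (1.38), Cdkn1c (1.11) and Cdkn2d (0.37) were higher in pre-granulosa-like cells, with adjusted p from 3.2e-12 for Cdkn1b to 0.0072 for Cdkn2d. Cdkn2c (-1.40), Ccnd1 (-1.0), Ccnd2 (-0.70) and Ccnd3 (-0.57) were lower, with adjusted p from 1.3e-07 for Ccnd1 to 0.0067 for Cdkn2c. Cdkn2c no longer passed without lot 26 (adjusted p = 0.081) or lot 30 (adjusted p = 0.057), nor did Cdkn2d without lot 26 (adjusted p = 0.086). Cdkn2d fell to 0.065 with the split by Mki67 alone (adjusted p = 0.62), where Cdkn2c was -2.25, and Cdkn2c was -0.54 with the split on deposited counts (adjusted p = 0.37).

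Among cells with a UMI, 7 of the 8 genes passed by edgeR against epithelial-like cells, 4 higher and 3 lower, beside 47.9% of genes (22.8% higher, 25.1% lower). Against stromal-like cells 7 passed, 3 higher and 4 lower, beside 52.8% (25.7% higher, 27.1% lower). The sides with a UMI were unlike in Mki67, which averaged 33.3 CPM in pre-granulosa-like, 270 CPM in epithelial-like and 343 CPM in stromal-like cells. Cdkn1b (log2 differences 1.73 and 1.81), Cdkn1c (1.10 and 1.64) and Cdkn1a (1.32 and 2.30) were again higher in pre-granulosa-like cells against epithelial-like and stromal-like cells. Cdkn2d was lower (-1.10 and -1.40), opposite in sign to the cells without a UMI, and stood at -0.57 against epithelial-like cells at the finer clustering (resolution 1.2). Ccnd1 was lower too (-0.63 and -0.37), with the same sign as in the cells without a UMI. Its call was lost against epithelial-like cells with 2 or more UMIs against none (-0.12, adjusted p = 0.80 by edgeR), and against stromal-like cells with the split by Top2a alone (-0.24, adjusted p = 0.11), without lot 26 (adjusted p = 0.063) or without lot 29 (adjusted p = 0.055). Cdkn1b against stromal-like cells was 1.2 with 2 or more UMIs against none.

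For Cdkn2c among cells with a UMI, pooled over the lots, 2 UMIs in pre-granulosa-like cells stood against 172 in epithelial-like and 177 in stromal-like cells. The ratios were 0.0638 (exact counting interval 0.00767 to 0.234) and 0.0405 (0.00487 to 0.148). These intervals leave out the spread between lots. Against epithelial-like cells the call over lots was lost with 2 or more UMIs against none (adjusted p = 0.084 by edgeR). Ccnd2 was higher against epithelial-like cells (0.71, adjusted p = 2.4e-05 by edgeR) and -0.17 against stromal-like cells (adjusted p = 0.18, and 0.0015 with the lot as a block). Ccnd3 was lower against stromal-like cells (-0.46, adjusted p = 0.00098) and -0.22 against epithelial-like cells (adjusted p = 0.090, and 0.00067 with the lot as a block).

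**Figure D4:**
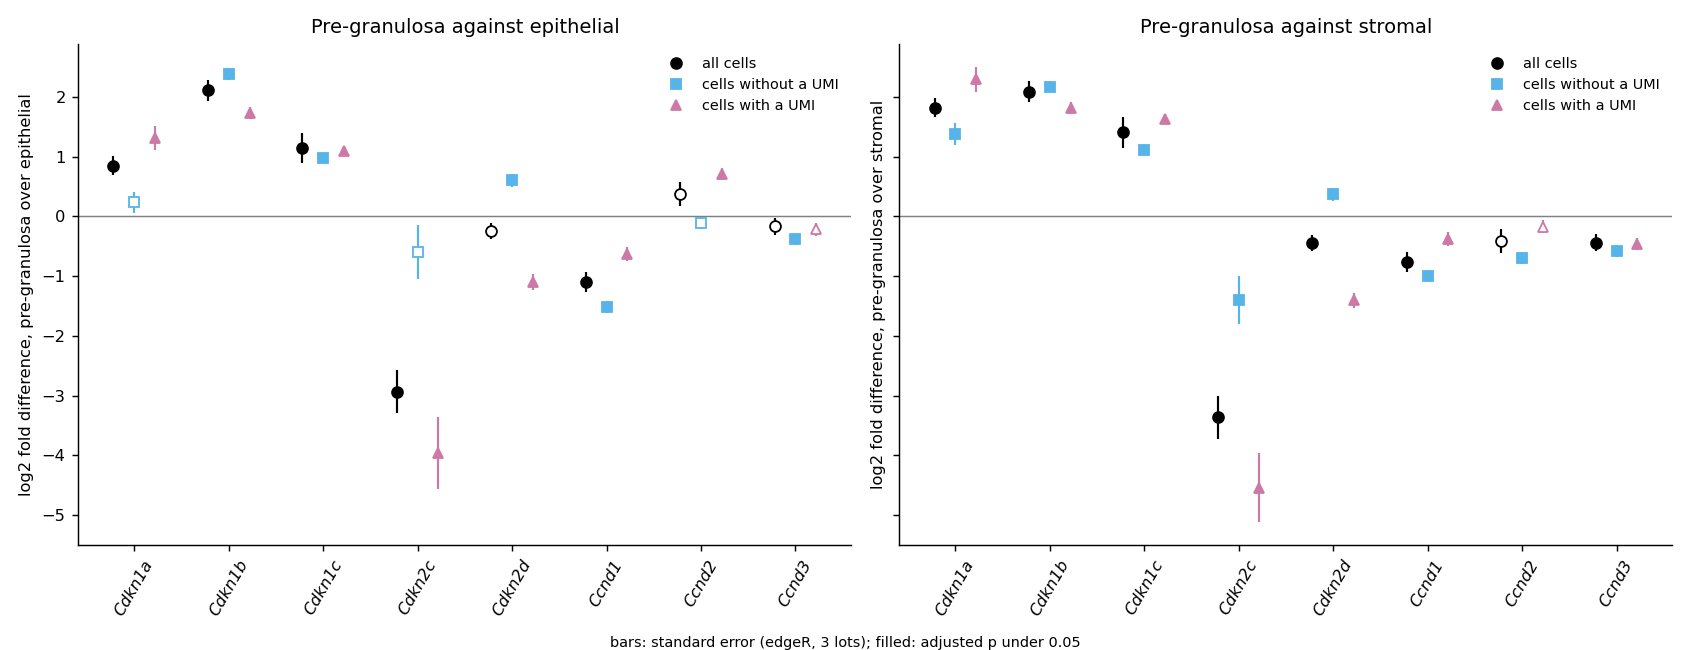
Log2 difference (y axis) of the 8 genes (x axis) between pre-granulosa-like and epithelial-like cells (left) or stromal-like cells (right), in all cells, in cells without and in cells with a Mki67 or Top2a UMI, with standard errors from edgeR over 3 lots and filled points where the adjusted p was under 0.05. Cdkn1b lies between 1.73 and 2.39 in every comparison, and Cdkn2d lies above 0 only in cells without a UMI.

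The difference between the classes in the effect of the split was tested itself. Relative to epithelial-like cells, 6 of the 8 genes differed by edgeR, 3 with a larger and 3 with a smaller value, beside 3.4% of all genes (0.308% larger, 3.09% smaller). Relative to stromal-like cells 4 of 8 did, 2 each way, beside 4.37% (0.874% larger, 3.49% smaller). Cdkn2d had the firmest difference, with -1.70 ± 0.17 (SE, adjusted p = 2.4e-06) relative to epithelial-like and -1.77 ± 0.17 (adjusted p = 9.3e-07) relative to stromal-like cells. Without lot 26 or without lot 30 the counts fell to 2 in both comparisons. The split is not shown to separate dividing cells in pre-granulosa-like cells. These values therefore cannot be told apart from the effect of the split in the other class alone.

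With the lot as a block, 7 genes differed relative to stromal-like cells by edgeR, now with Ccnd2 (0.51, adjusted p = 1.2e-06), Cdkn1a (0.90, adjusted p = 0.0017) and Cdkn1b (-0.35, adjusted p = 0.032). Without the block these were 0.53 (adjusted p = 0.050), 0.92 (adjusted p = 0.078) and -0.36 (adjusted p = 0.18).

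The pre-granulosa-like cells fell into 2 clusters, which differed in Cdkn1b while their shares with a Mki67 or Top2a UMI were close. Cluster 1, of 5101 cells, held 265, 257 and 247 CPM of Cdkn1b in lots 26, 29 and 30, and cluster 0, of 6861 cells, held 115, 112 and 111 CPM. Every lot of cluster 1 stood above every lot of cluster 0. Cluster 1 had higher Fst (1361 against 505 CPM) and Foxl2 (9.89 against 2.07 CPM), and lower Ccnd1 (17.5 ± 0.885 against 35.2 ± 1.84 CPM), Cdkn1c (2707 against 3447 CPM) and Cdkn1a (69.2 against 104 CPM). The shares with a Mki67 or Top2a UMI were 6.25% and 7.15%. These values describe clusters that the same cells formed and were not tested, and the 8 genes were kept out of the genes used for clustering.

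**Figure D5:**
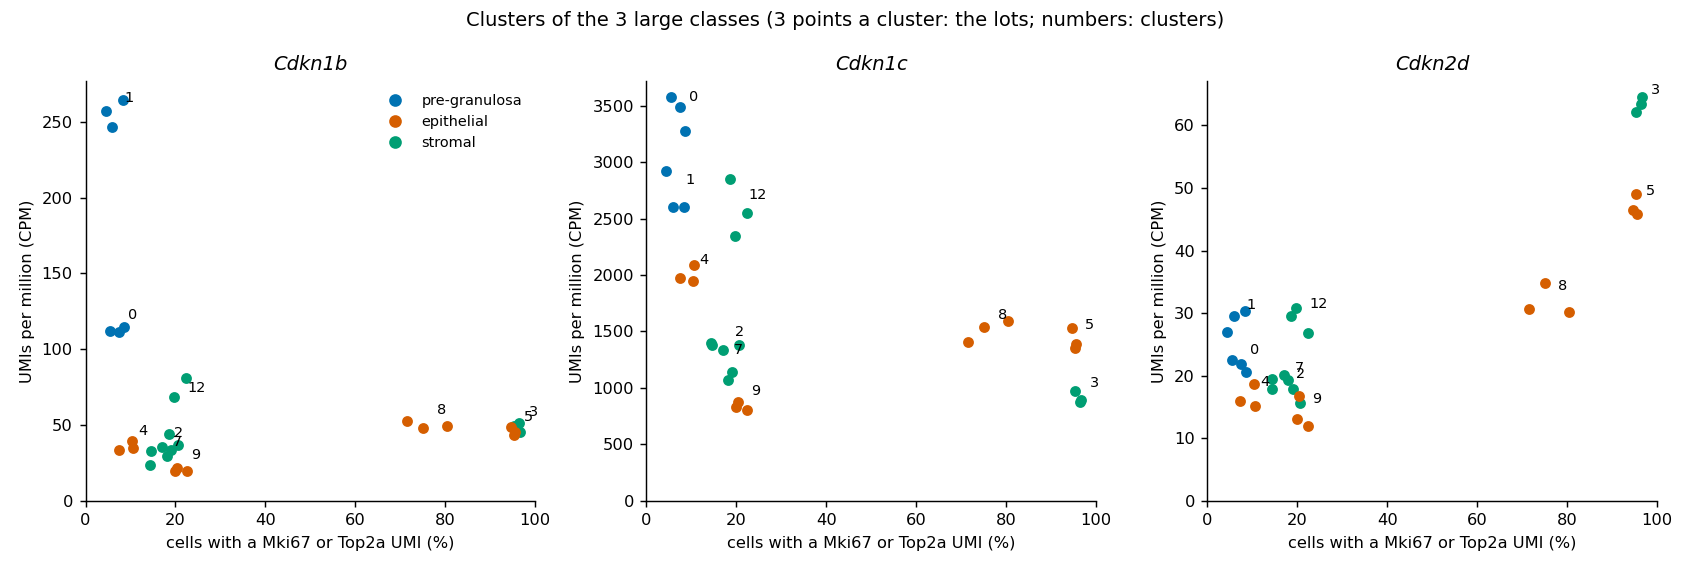
Level in CPM (y axis) of Cdkn1b, Cdkn1c and Cdkn2d against the percentage of cells with a Mki67 or Top2a UMI after thinning to 4000 UMIs (x axis) in the clusters of the 3 large classes, with 1 point for each lot and the cluster number beside it. Both pre-granulosa-like clusters (0 and 1) lie at the left, at 113 and 256 CPM of Cdkn1b on average. Cdkn2d is highest in the stromal-like cluster 3 and the epithelial-like cluster 5, where the mean share of cells with a UMI over the lots was above 95%.

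The epithelial-like and stromal-like classes held the cells with the most Mki67 and Top2a. In the epithelial-like clusters 5 and 8 the share with a UMI averaged 95.2% and 75.7%, in clusters 4 and 9 it averaged 9.38% and 21.0%, and in the stromal-like cluster 3 it averaged 96.2%. Cdkn2d averaged 47.1 CPM in cluster 5 and 63.3 CPM in cluster 3, against 16.6 CPM in cluster 4 and 17.8 CPM in the stromal-like cluster 2. Cdkn1b stayed between 20.3 and 49.98 CPM in all 4 epithelial-like clusters, so no cluster of that class reached the 113 CPM of pre-granulosa-like cluster 0.

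The border between the classes matters for dividing cells. At a finer clustering (resolution 1.2 in place of 0.8) a cluster of 356 cells was named pre-granulosa-like, of which 353 belonged to the epithelial-like class above. It held Wnt4 at 337 CPM and Fst at 257 CPM beside Upk3b at 68.9 CPM, with Foxl2 at 0.966 CPM, Top2a at 462 CPM and Mki67 at 175 CPM. Cdkn1b stood at 75.9 CPM and Cdkn1c at 2429 CPM, between the 2 classes, with Cdkn2d at 38.6 CPM and Ccnd1 at 29.7 CPM. All cells were clustered and named anew at resolution 1.2, so the other classes could change as well. There the share with a UMI in pre-granulosa-like cells was 8.69%. The split gave 0 of the 8 genes, now beside 473 genes of all 13538 tested by edgeR. The part of the 356 cells in this was not tested.

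Cluster 11, of 722 cells, stayed unnamed. Its highest marker score was for the pre-granulosa list, with Wnt4 at 499 CPM and Fst at 776 CPM, but its median depth was 2662.5 UMIs a cell, 0.242 of that of its lots, and only 1 raised marker was found in 60% of its cells. It held Cdkn1b at 261, 235 and 141 CPM in lots 26, 29 and 30 together with Mki67 at 315, 384 and 342 CPM and Top2a at 338, 476 and 433 CPM, so Cdkn1b and Mki67 were both high in these sums. Cdkn1c averaged 1004 ± 61.6 CPM, Ccnd1 73.1 ± 15.2 CPM and Cdkn2d 15.2 ± 2.05 CPM. Of the cells with at least 4000 UMIs, 24 of 77, 1 of 2 and 24 of 76 carried a Mki67 or Top2a UMI.

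With cluster 11 counted as pre-granulosa-like, Cdkn1b measured 178, 164 and 155 CPM, the share with a UMI was 7.07% ± 1.91, and the calls of the 8 genes against epithelial-like and stromal-like cells stayed the same by edgeR. The split in pre-granulosa-like cells then gave 0 of the 8 genes and 67 of all genes tested.

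The lists of other cell cycle genes give the setting of these values. Of the 16 G2 and M genes, 16 were lower in pre-granulosa-like cells by edgeR against both epithelial-like and stromal-like cells, with median log2 differences of -4.43 and -4.25, beside 19.4% and 22.6% of all genes that were lower. Examples are Kif23, a kinesin of cell division (-4.20 and -4.01), and Nusap1, a spindle protein (-5.40 and -5.23). Of the 15 S phase genes, 12 and 11 were lower and 0 higher (medians -0.85 and -0.60), among them Cdc6, which licenses replication origins (-2.29 and -2.39), and Rrm2, a subunit of ribonucleotide reductase (-3.06 and -2.71).

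Of 9 other cyclins and kinases, 6 were lower and 0 higher by edgeR in both comparisons (medians -1.53 and -1.34), led by Ccna2, cyclin A (-4.56 and -4.23), and Ccnb2, a cyclin B (-4.32 and -3.93). Of the 12 genes of the Rb and E2F list, 9 and 7 were lower and 0 higher (medians -0.72 and -0.50), led by the repressors E2f7 (-3.78 and -3.69) and E2f8 (-4.35 and -4.29), while Rbl2, the p130 pocket protein, was 0.37 (adjusted p = 0.084) and 0.01 (adjusted p = 0.97). The medians over all genes were 0.06 and 0.03.

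The list of p27 turnover genes went both ways. Against epithelial-like cells Skp2, the ubiquitin ligase subunit that marks p27 for breakdown (log2 difference -0.75, adjusted p = 1.8e-06 by edgeR), and its partner Cks1b (-1.66, adjusted p = 4.4e-07) were lower in pre-granulosa-like cells. Foxo1 (0.63, adjusted p = 0.00073) and Foxo3 (0.73, adjusted p = 0.0023), forkhead factors known to induce p27, were higher. Against stromal-like cells Skp2 (-0.73) and Cks1b (-1.43) were again lower, and Cul1 (0.47) and Skp1a (0.39), the scaffold and adaptor of the same ligase, were higher. In all, 2 of 6 genes were higher and 2 lower in each comparison (medians 0.26 and -0.02). Foxo1 and Foxo3 did not pass against stromal-like cells, nor did Cul1 and Skp1a against epithelial-like cells.

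Of 11 other p53 targets tested by edgeR, 5 passed in each comparison, close to the 44.9% and 48.6% of all genes. Among them 3 were higher and 2 lower against epithelial-like cells (median 0.11), and 2 higher and 3 lower against stromal-like cells (median -0.16). Trp53inp1 (log2 differences 1.26 and 0.56) and Sesn2 (1.28 and 0.92) were higher, and Phlda3 (-1.41 and -2.37) was lower in both, with Aen (-0.63) lower against epithelial-like and Fas (-1.41) lower against stromal-like cells.

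Of 13 stress and immediate early genes, 1 was higher against epithelial-like cells by edgeR (Hspb1, log2 difference 1.01, adjusted p = 0.028), 2 were higher against stromal-like cells (Hspb1, 1.94, and Hspa1b, 1.65), and 0 were lower. Ier2 (0.62, adjusted p = 0.19) and Hsp90aa1 (-0.66, adjusted p = 0.053) against epithelial-like cells, and Junb (-0.91, adjusted p = 0.14) and Ier3 (-0.35, adjusted p = 0.46) against stromal-like cells, did not pass. Within pre-granulosa-like cells Atf3, a stress-induced factor, measured 73.7, 122 and 781 CPM in lots 26, 29 and 30, highest in lot 30, while Cdkn1a was highest in lot 29. Its part in the Cdkn1a level was not tested. Of the genes listed as other INK4 inhibitors, Cdkn2b (p15) was higher than in stromal-like cells (1.54, adjusted p = 0.032) and -0.08 against epithelial-like cells (adjusted p = 0.91). Cdkn2a, counted as a whole gene and not by product, was 0.05 against epithelial-like and 0.01 against stromal-like cells, with neither passing.

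Across the 24 sums of class and lot, Cdkn1b had a Pearson correlation of -0.76 with Mki67 and -0.72 with Top2a on log2(CPM + 1), the most negative of the 8 genes. Cdkn2c (0.56 and 0.35) and Cdkn2d (0.47 and 0.52) were positive, Ccnd1 was 0.54 and 0.74, and Cdkn1c was -0.32 and -0.06. The genes most like Cdkn1b over the same sums, among 9874 genes, were Lzts1 (r = 0.86) and Kitl (r = 0.83), and those most like Cdkn1c were Idh1 (0.96) and Smarca1 (0.96).

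Among the genes closest to Ccnd1 was Prep (r = 0.98), and Ccnd2 ran closest to Maml3 and Pgrmc1 (0.95 each), Ccnd3 to Bambi and Fam160b1 (0.94 each), Cdkn2d to Trappc8 (0.93) and Foxn2 (0.89), Cdkn1a to Ly6e and Scpep1 (0.87 each) and Cdkn2c to Il17ra (0.85) and Itga4 (0.81). The 24 points are 8 classes measured in the same 3 lots and share library and depth within a lot, so these values describe the classes and carry no test.

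On GRCm38 with GENCODE annotation, Cdkn1b (ENSMUSG00000003031) spans chr6:134920401-134925513 on the plus strand and overlaps no other annotated gene. Cdkn1a (ENSMUSG00000023067) spans chr17:29090976-29100727 on the plus strand, Cdkn1c (ENSMUSG00000037664) chr7:143458339-143461050 on the minus strand, Cdkn2c (ENSMUSG00000028551) chr4:109660876-109667189 on the minus strand and Cdkn2d (ENSMUSG00000096472) chr9:21288410-21291407 on the minus strand. Ccnd1 (ENSMUSG00000070348) spans chr7:144929931-144939925 on the minus strand, and LTO1 on the other strand overlaps its 3′ end over 1771 bases. Ccnd2 (ENSMUSG00000000184) spans chr6:127125162-127152193 on the minus strand, with the antisense gene Gm43126 over 994 bases of its 3′ end. Ccnd3 (ENSMUSG00000034165) spans chr17:47505051-47599691 on the plus strand and shares 361 bases at its 3′ end with Bysl on the other strand. Away from the 3′ ends, genes on the other strand also overlap Cdkn1a (AC167363.2, 1046 bases), Cdkn1c (Gm44732, 892 bases) and Ccnd2 (9330179D12Rik, 2805 bases). Bysl is listed in the count tables, and LTO1 and Gm43126 are not under these names. The strand setting of the counting is not given in the sources used here, so reads of these genes and of their antisense partners cannot be told apart where they overlap.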

How the data were processed

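Per the labels, the authors made 10X Genomics 3′ v3 libraries of 3 thawed lots. The submitters' processing notes name UMI-tools, STAR 2.7, featureCounts 2.0.1, Seurat and GRCm38, and the annotation release and strand setting are not given in the sources used here. The deposited values are UMI counts per gene and cell, not normalized, in 1 table a lot, with median depths of 8949 to 11595 UMIs a cell. Because a 3′ UMI count does not scale with gene length and capture differs between genes, levels are compared between classes and not between genes.

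Cells with 200 to 9000 genes and at most 10% mitochondrial UMIs were kept. Scrublet (scanpy 1.11.5) called 566, 347 and 635 doublets in lots 26, 29 and 30, which stayed in unless stated. The lots were clustered together with Seurat 5.3.0 (resolution 0.8) without the listed cell cycle genes. Some clusters were still led by genes of dividing cells, such as Cdc25c and Cdc20 in cluster 8. The clusters, and the classes built from them, are therefore not free of the cell cycle. The 20 clusters were named from 11 marker lists, by a rule that was set after the clusters had been seen: a mean marker score of at least 1 and 0.5 above every other list, at least 3 markers raised by 0.5 on a log2 scale, and 2 of these found in at least 60% of the cluster's cells. Clusters 10, 11 and 13 failed it and stayed unnamed. Differential expression used edgeR 4.0.16 (R 4.3.3, TMM scaling, filterByExpr, quasi-likelihood test, Benjamini-Hochberg over all genes tested, threshold 0.05) on counts summed by class and lot, with every class of at least 10 cells in each lot (8 classes). Unnamed and Sertoli-like cells, and neural crest-like cells (8 in lot 30), stayed out of the tests. Splits by Mki67 or Top2a used 18 sums, 3 classes by 3 lots by 2 sides. Scripts were tested on simulated data. There, 18 of 183 calls between pre-granulosa-like and epithelial-like cells were false (9.84%). In the pre-granulosa-like split 18 of 50 genes changed 1.5-fold and 36 of 50 changed 2-fold were found, so smaller differences can be missed. Adjusted p-values are from edgeR unless another tool is named, and ± gives the SD over lots for levels and shares and the standard error for log2 differences.

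The classes of a lot come from the same pool, so the lot pairs them. The deviations from the class means of the 3 large classes correlated within a lot with r from 0.822 to 0.912 (1658 genes, 9 pairs), and 76 of all 84 pairs of classes and lots had r over 0.1. The fit with the lot as a block was an alternative, as were DESeq2 1.42.0, other filters, depths, splits and clusterings, and leaving out each lot. Counting cluster 11 as pre-granulosa-like was added after seeing the data. The genes and lists were chosen with earlier results of these data known. Other genes are named by rule: the 2 of each list with the smallest adjusted p in each direction against epithelial-like and against stromal-like cells, and the 2 most like each member over the 24 sums, of which 1 is not reported here.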

Additional observations from a re-analysis of the deposited data

Results flagged for a closer look

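The difference between cells with and without a Mki67 or Top2a UMI was compared between pre-granulosa-like cells and the 2 other large classes by an interaction term in edgeR, and the results that passed an adjusted p of 0.05 are given here as log2 values, pre-granulosa-like minus the other class. Relative to epithelial-like cells they were 0.88 for Ccnd1, 0.82 for Ccnd2, 1.08 for Cdkn1a, -0.66 for Cdkn1b, -3.36 for Cdkn2c and -1.70 for Cdkn2d, with adjusted p from 2.4e-06 for Cdkn2d to 0.031 for Cdkn2c. Relative to stromal-like cells they were 0.63 for Ccnd1, 0.53 for Cdkn1c, -3.14 for Cdkn2c and -1.77 for Cdkn2d, with adjusted p from 9.3e-07 for Cdkn2d to 0.034 for Cdkn2c.

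Cdkn2d passed in both comparisons without each lot in turn, and with the split by Mki67 alone it was the 1 gene of the 8 that passed in each. Relative to epithelial-like cells, Ccnd1 missed the threshold without lot 30 (adjusted p = 0.074 by edgeR), Ccnd2 without lot 26 (0.053) or 30 (0.11), Cdkn1a without lot 26 (0.20) or 30 (0.21), Cdkn1b without lot 26 (0.11) or 30 (0.11), and Cdkn2c without lot 26 (0.55) or 29 (0.21). Relative to stromal-like cells, Ccnd1 missed it without lot 29 (0.21) or 30 (0.28), Cdkn1c without lot 26 (0.058) or 30 (0.16), and Cdkn2c without lot 26 (0.40) or 29 (0.24). Cdkn2c rests on 2 UMIs in pre-granulosa-like cells with a UMI. Because the split is not shown to separate dividing cells in that class, these values cannot be told apart from the split effect of the other class alone.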

How the results depend on the processing

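Of 1464 values of the 8 genes under alternatives (96 results), 1313 kept their sign and their side of the threshold, 60 lost and 56 gained an adjusted p under 0.05 with the same sign, and 35 changed sign, of which only Ccnd1 below had passed. The count of the 8 genes passing between epithelial-like and stromal-like cells, 2, was 4 with DESeq2, 4 with the lot as a block and 6 with the 3 large classes only. In the stromal-like split it was 6, and 3 to 6 without each lot. For the difference of the splits relative to epithelial-like cells the count of 6 was 3 at resolution 1.2, 1 with the split by Mki67 alone and 2 to 5 without each lot, and relative to stromal-like cells the count of 4 was 7 with the block, 7 with called doublets removed, 1 with Mki67 alone and 2 to 3 without each lot. The cause of these changes was not tested. With the block, where the lots pair the classes, the genes whose call changed are given in the report, and no other call of the 8 genes changed.

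The share with a Mki67 or Top2a UMI in pre-granulosa-like, epithelial-like and stromal-like cells was 3.45%, 41.1% and 32.4% at 2000 UMIs, 13.1%, 61.9% and 59.2% at 8000 UMIs, and 16.6%, 63.6% and 50.1% without thinning. For Mki67 alone it was 1.94%, 29.5% and 26.2%, and for Top2a alone 5.07%, 45.2% and 36.9%. At resolution 1.2 the pre-granulosa-like share was 8.69%. Pre-granulosa-like cells were lowest under each.

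Cdkn1b between epithelial-like and stromal-like cells (log2 difference -0.02) turned to 0.00043 with no low-count filter, 0.15 with doublets removed, 0.21 with cell cycle genes left in the clustering and 0.025 at resolution 1.2, and ranged from -0.060 to 0.041 without each lot. In the pre-granulosa-like split, where none of the 8 passed, with cluster 11 counted as pre-granulosa-like Ccnd2 turned to -0.034 and Cdkn2c to 0.22, and Ccnd2 turned to -0.0090 with no filter, -0.0057 with the lot as a block, -0.21 at resolution 1.2, -0.14 with Mki67 alone and -0.16 with 2 or more UMIs, and ranged from -0.021 to 0.046 without each lot. Cdkn1a turned to 0.025 with DESeq2, 5.6e-05 with doublets removed, 0.0053 with cell cycle genes in, 0.047 with the split on deposited counts and 0.0074 with Top2a alone, and ranged from -0.088 to 0.036 without each lot. Cdkn2c turned to 1.76 at resolution 1.2 and 0.14 with Top2a alone and ranged from -5.24 to 0.52 without each lot, and Cdkn2d to 0.13 at resolution 1.2. Ccnd1 turned to -0.17 and Cdkn1b to 0.0075 with Mki67 alone, Ccnd3 to 0.010 and Cdkn1c to 0.016 on deposited counts, and Cdkn1c to 0.0093 with Top2a alone.

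Ccnd2 against epithelial-like cells without a UMI turned to 0.13 with Mki67 alone. With 2 or more UMIs, Ccnd1 against stromal-like cells with a UMI turned to 0.077 (adjusted p = 0.84 by edgeR), the difference of the splits for Cdkn1c relative to epithelial-like cells to -0.054, and that for Ccnd3 relative to stromal-like cells to -0.094. Depth limits Cdkn2c above all, with 11, 11 and 9 UMIs in the pre-granulosa-like sums. The pre-granulosa-like split called 2 genes of all tested by edgeR, 4 with the block, 10 with DESeq2, 67 with cluster 11 counted in the class, 53 with 2 or more UMIs and 473 at resolution 1.2. In the epithelial-like split the count over all genes was 1341, and 4018 with the block, and in the stromal-like split 1930, and 4543 with the block.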
